A study of Mus musculus with 4 samples.

Results

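The Clec4 lectin receptor cluster is a group of neighbouring genes on mouse chromosome 6 that encode C-type lectin receptors of myeloid cells. The members were chosen by name (Clec4a1, Clec4a2, Clec4a3, Clec4a4, Clec4b1, Clec4d, Clec4e and Clec4n), and all 8 were found among the 54532 genes of the deposited table. They were picked with their difference between the groups in view, so their values below are a description with no test. The libraries hold RNA of tumour-associated macrophages (TAMs), which the labels describe as sorted from glioblastoma (GBM) xenografts by staining (CD45+, Gr1-, CD11b+ and DAPI-). Of the 4 libraries, 2 came from treatment with MK-8931 (verubecestat, which inhibits the beta-secretase BACE1) and 2 from control. The protocols in the labels speak of glioma stem cells given the compound or vehicle for 3 days, while the cell type entry names sorted TAMs, so the dose and route by which the macrophages met the compound are not given. All animals are labelled only as GBM mice, with no genotype, age or statement that the libraries came from separate animals. P-values therefore measure only the spread between these libraries, which may be technical.

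These receptors bind glycans and glycolipids of microbes and of damaged cells. Clec4e (Mincle), Clec4d (MCL), Clec4n (Dectin-2) and Clec4b1 (DCAR) pair with the FcR gamma chain, encoded by Fcer1g, whose ITAM motif recruits the kinase Syk and then the Card9, Bcl10 and Malt1 complex that activates NF-kB. Clec4a2 (DCIR) and Clec4a4 (DCIR2) instead carry an ITIM, an inhibitory motif that recruits the phosphatases Ptpn6 and Ptpn11. Clec4a1 (DCIR4) and Clec4a3 (DCIR3) are related to these but lack the ITIM. Mincle was named for its induction in activated macrophages, and in mouse macrophages it is known as a target of the transcription factor C/EBP beta.

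Promoter sequences of 3 members are printed first because their transcripts showed larger differences (Clec4e and Clec4d) or the highest FPKM (Clec4a1). Each runs 5′ to 3′ on the strand of its gene, over 250 bases before and 50 bases after a transcript start in RefSeq on GRCm38.p6. Capitals mark matches to the C/EBP motif TTNNGNAA or the PU.1 motif GAGGAA on either strand. PU.1 and the C/EBP proteins are transcription factors of myeloid cells. Clec4e lies on the minus strand at chr6:123289822-123290121, Clec4d on the plus strand at chr6:123261857-123262156, and Clec4a1 on the plus strand at chr6:122921598-122921897.
Clec4e: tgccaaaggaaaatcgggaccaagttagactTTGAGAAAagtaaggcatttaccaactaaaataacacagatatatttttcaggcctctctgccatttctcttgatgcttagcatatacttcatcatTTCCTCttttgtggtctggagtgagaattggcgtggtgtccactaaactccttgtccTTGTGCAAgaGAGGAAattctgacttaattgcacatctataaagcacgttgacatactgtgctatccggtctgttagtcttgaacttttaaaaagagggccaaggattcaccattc
Clec4d: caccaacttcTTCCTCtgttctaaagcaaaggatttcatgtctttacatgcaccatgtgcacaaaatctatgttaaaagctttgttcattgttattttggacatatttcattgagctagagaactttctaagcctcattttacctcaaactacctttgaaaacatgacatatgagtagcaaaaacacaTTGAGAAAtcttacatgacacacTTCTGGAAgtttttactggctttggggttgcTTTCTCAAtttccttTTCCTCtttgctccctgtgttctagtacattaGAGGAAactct
Clec4a1: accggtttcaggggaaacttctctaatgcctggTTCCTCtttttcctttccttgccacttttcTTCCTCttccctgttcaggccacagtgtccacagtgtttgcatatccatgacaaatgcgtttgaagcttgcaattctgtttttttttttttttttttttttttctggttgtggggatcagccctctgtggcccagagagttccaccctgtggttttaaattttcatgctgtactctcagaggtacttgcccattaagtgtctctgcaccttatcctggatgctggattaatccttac

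The Clec4e window holds 2 matches to the C/EBP motif, which begin 219 and 66 bases before the start, and 2 to the PU.1 motif, the nearer of them 56 bases before the start. The Clec4d window holds 3 of each, and its C/EBP matches begin 62, 39 and 8 bases before the start. The Clec4a1 window holds 2 PU.1 matches and no C/EBP match. RefSeq promoters were matched for 6 of the 8 members, with 2 starts for Clec4a3. Among the others, Clec4b1 had 2 PU.1 matches, the second Clec4a3 start had 1, and Clec4a2 had 2 overlapping C/EBP matches and 1 match to the AP-1 motif TGANTCA. Of 32851 mouse promoters of the same length, 40.7% held the C/EBP letters, 28.3% the PU.1 letters and 7.81% the AP-1 letters. The NF-kB motif GGGANTTTC, found in 1.11% of promoters, had no match in these 7 windows. A match describes the letters in this window and does not show binding.

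Library totals lay between 18257930 and 20179875 counts, and 18258 to 20075 genes had at least 1 count per library. The level of 3 counts, the limit that a count of 0 allows, was 0.149 to 0.164 CPM (counts scaled to library size) and covers counting error only. Among 13932 genes that passed the filter on low counts, 120 were higher with MK-8931 and 19 lower by edgeR's quasi-likelihood test at an adjusted p under 0.05, and the median log2 fold change was −0.003. Without control 1 these counts were 520 and 243, and 47 were lower without control 2 and 10 without MK-8931 2. Macrophage genes such as Csf1r (1583 and 1490 CPM with MK-8931, 1619 and 1548 CPM in controls) and Adgre1 were abundant in every library. Listed neutrophil markers were present too, at a summed 608 and 1010 CPM with MK-8931 and 93.1 and 91.1 CPM in controls, although Ly6g had no count except in MK-8931 2 (0.761 CPM).

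Transcripts of 7 of the 8 members stood above both controls in each MK-8931 library, a pattern seen in 21.2% of all genes tested. Summed over the cluster, they reached 591 and 737 CPM in the MK-8931 libraries, against 312 and 322 CPM in the controls. As a share of all counts this was 0.0596% and 0.0742% with MK-8931, against 0.0315% and 0.0312% in the controls. All 8 members passed the filter on low counts, and the edgeR threshold was passed upward by 4 of them (Clec4a1, Clec4a2, Clec4d and Clec4e), with 0.861% of all genes past it in that direction. None passed downward, against 0.136% of all genes, and 0.998% passed in either direction. The members were chosen on this contrast, so nothing is read from these shares. In bulk RNA, a change in the number of cells of a type and a change in RNA per cell cannot be told apart.

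Levels per length are given as the authors' FPKM (fragments scaled to gene length and library size), and fold changes are from the edgeR fit. Clec4e, whose product Mincle binds mycobacterial and self glycolipids and a nuclear protein released by dying cells, had 24.3 and 36.3 FPKM with MK-8931, against 10.9 and 11.4 FPKM in controls. Both MK-8931 libraries stood above both controls, and MK-8931 2 was the higher of its pair. The log2 fold change was 1.45 (SE 0.19), or 2.73-fold, from means of 152 ± 42.3 CPM with MK-8931 and 55.4 ± 1.17 CPM in controls (SD, n = 2).

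Clec4d, whose product MCL forms a complex with Mincle, had 54.4 and 84.6 FPKM with MK-8931, against 21.0 and 30.0 FPKM in controls. The groups did not overlap, but the libraries within each group lay further apart than for most members. The log2 fold change was 1.46 (SE 0.24), or 2.75-fold. Clec4d and Clec4e were thus the members above 10 FPKM with the largest differences. The genes converge on the chromosome, with 6523 bp between their ends. The ratio of Clec4e to Clec4d counts was 1.39 and 1.33 with MK-8931, against 1.62 and 1.18 in controls, so the MK-8931 values lay between the control values.

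Clec4n, whose product Dectin-2 binds alpha-mannans of fungi and mycobacteria, had 47.6 and 60.5 FPKM with MK-8931, against 26.3 and 36.6 FPKM in controls. The groups did not overlap, and the libraries within each group lay about as far apart as the nearest libraries of the groups. The log2 fold change was 0.79 (SE 0.19), or 1.73-fold. Clec4b1, whose product DCAR is a further activating receptor, was expressed at a lower level, with 6.11 and 6.26 FPKM with MK-8931, against 2.39 and 1.31 FPKM in controls. The MK-8931 libraries were nearly equal and the controls were apart from each other, with 94 and 91 counts with MK-8931 and 35 and 20 counts in controls. Its log2 fold change of 1.75 (SE 0.43) was the highest of the cluster and had the second largest error.

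The inhibitory members differed from each other. Clec4a2, which encodes DCIR, had 40.4 and 45.7 FPKM with MK-8931, against 24.9 and 25.1 FPKM in controls. The control libraries were almost equal and both lay below both MK-8931 libraries. The log2 fold change was 0.80 (SE 0.13), or 1.74-fold. Clec4a4, whose product DCIR2 is known from dendritic cells, had only 11 and 2 counts with MK-8931, against 19 and 8 counts in controls (0.722 and 0.139 FPKM, against 1.31 and 0.528 FPKM). The groups overlapped, and the value of MK-8931 2 is under the level of 3 counts. The ratio of the groups' summed counts, scaled to library size, was 0.485 (exact Poisson 95% interval 0.230 to 0.972, counting error only), which leaves out the spread between libraries, and the fitted log2 fold change was −1.06 (SE 1.06).

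The members without an ITIM were both higher with MK-8931. Clec4a1 had the highest mean FPKM of the cluster in each group, with 81.7 and 79.1 FPKM with MK-8931, against 44.4 and 33.9 FPKM in controls. The MK-8931 libraries were close to each other and above both controls. The log2 fold change was 1.05 (SE 0.16), or 2.07-fold. Clec4a3 had 45.7 and 51.0 FPKM with MK-8931, against 30.2 and 29.4 FPKM in controls. The groups did not overlap, and the log2 fold change was 0.71 (SE 0.14), or 1.63-fold, the smallest among the 7 members that were higher.

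**Figure D1:**
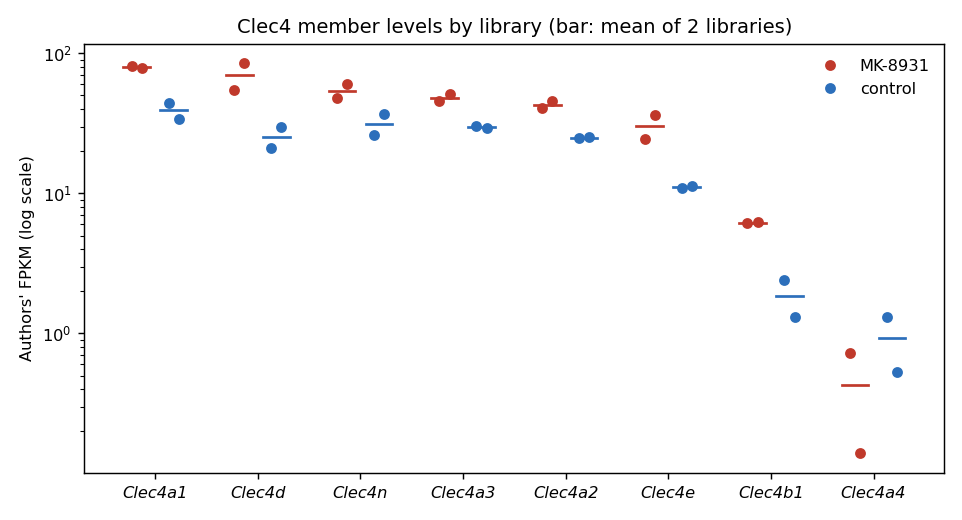
Level of each Clec4 member in each of the 4 libraries, as the authors' FPKM on a log axis. Points are libraries (MK-8931 left, control right for each gene) and bars are means of 2 libraries. For 7 members both MK-8931 points lie above both control points, and for Clec4a4 the points of the groups overlap.

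Ordered by mean FPKM with MK-8931, Clec4a1 came first (80.4 ± 1.82), then Clec4d (69.5 ± 21.4), Clec4n (54.1 ± 9.14), Clec4a3 (48.3 ± 3.71), Clec4a2 (43.1 ± 3.75), Clec4e (30.3 ± 8.42), Clec4b1 (6.18 ± 0.108) and Clec4a4 (0.430 ± 0.413; SD, n = 2). In this order Clec4d overlapped with both Clec4a1 and Clec4n, Clec4n overlapped with Clec4a3, Clec4a3 and Clec4a2 met at 45.7 FPKM, and Clec4e, Clec4b1 and Clec4a4 were each apart from the member before. In controls the order was Clec4a1, Clec4n, Clec4a3, Clec4d, Clec4a2, Clec4e, Clec4b1 and Clec4a4, and each neighbouring pair of the first 5 overlapped. Clec4b1 and Clec4a4 also met there at 1.31 FPKM. Clec4d was the only member to change place by more than 1 step, standing 2 places higher with MK-8931 than in controls. These places depend on the gene length used. The file gives Clec4a2 a length of 2926 bases and Clec4e 4965 bases, while their transcripts with the longest coding sequence have 1261 and 2518 bases in GENCODE M21. Computed with those lengths, an alternative added after the data were seen, Clec4a2 stood first in both groups (102 CPM per kilobase with MK-8931, 57.4 in controls). A change of length leaves the fold changes as they are.

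The composition of the cluster's RNA is given as shares of the members' counts, with intervals that cover counting error only. Clec4e made up 20.6% (95% Wilson interval 19.9 to 21.3) and 24.6% (23.9 to 25.4) of the members' counts in the MK-8931 libraries, against 17.5% (16.6 to 18.5) and 17.5% (16.6 to 18.4) in the controls. The intervals of the MK-8931 libraries did not overlap each other, so these libraries differed by more than counting error. Clec4a2 made up 20.1% and 18.3% with MK-8931, against 23.5% and 22.7% in controls. The ratio of Clec4e to Clec4a2 counts was 1.02 and 1.35 with MK-8931, against 0.746 and 0.769 in controls. Counts are not scaled to gene length, and by FPKM Clec4e stood below Clec4a2 in every library. With MK-8931 Clec4e had 24.3 and 36.3 FPKM and Clec4a2 40.4 and 45.7 FPKM. In controls Clec4e had 10.9 and 11.4 FPKM and Clec4a2 24.9 and 25.1 FPKM. The ratio of Clec4a3 to Clec4a2 counts stayed within a narrow range, at 0.513 and 0.505 with MK-8931 and 0.551 and 0.532 in controls. The 4 activating members together took 47.7% and 55.6% of the members' counts with MK-8931, against 41.0% and 48.7% in controls. These ranges overlapped, since MK-8931 1 fell below control 2. In CPM the activating members summed to 282 and 410 with MK-8931 against 128 and 157 in controls, the ITIM members to 120 and 135 against 74.3 and 73.5, and the other two to 189 and 192 against 110 and 91.5.

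Members also differed in how far the libraries of 1 group lay apart. MK-8931 2 exceeded MK-8931 1 by 1.56 times for Clec4d, 1.49 times for Clec4e and 1.27 times for Clec4n, but by 1.13 times or less for Clec4a2, Clec4a3 and Clec4b1, and was at 0.970 times for Clec4a1. Between the controls, control 2 stood at 1.42 times control 1 for Clec4d and 1.38 times for Clec4n. It stood at 1.03 times for Clec4e, 0.757 times for Clec4a1 and 0.542 times for Clec4b1. All 3 of Clec4d, Clec4n and Clec4e were higher in the library numbered 2 of each group, Clec4e by little in the controls.

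The 8 genes span 368 kb of chromosome 6 (GRCm38, coordinates as in the deposited table). From the centromeric side they are Clec4a1 (ENSMUSG00000049037, 122921848 to 122934619), Clec4a3 (ENSMUSG00000043832, 122952515 to 122969875), Clec4a4 (ENSMUSG00000059639, 122990367 to 123024105), Clec4b1 (ENSMUSG00000030147, 123049962 to 123071555), Clec4a2 (ENSMUSG00000030148, 123106428 to 123143999), Clec4n (ENSMUSG00000023349, 123229843 to 123247021), Clec4d (ENSMUSG00000030144, 123262111 to 123275265) and Clec4e (ENSMUSG00000030142, 123281789 to 123289870). All lie on the plus strand except Clec4e. Each has 6 exons in its transcript with the longest coding sequence, or 7 for Clec4a2, and their coding sequences run from 209 codons (Clec4b1 and Clec4n) to 262 (Clec4a2). The coding sequences of Clec4a2 and Clec4a4 were the most alike at 77.2% identity, and those of Clec4a2 and Clec4e the least at 47.8%. Of the 50-base windows of these transcripts, 15.0% in Clec4a2, 15.7% in Clec4a4 and 9.73% in Clec4b1 occur in another of the 3, and 0.932% in Clec4n occur in the pseudogene Gm44147. Reads in those windows could have been assigned to either gene. Clec4a2 had 1360 to 2481 counts per library. Some of the 2 to 19 counts of Clec4a4 and the 20 to 94 counts of Clec4b1 could therefore be its reads. How many was not tested, so the values of Clec4a4 and Clec4b1 are uncertain. The other members had no shared window.

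Genes beside the cluster were compared to see how far the pattern reached along the chromosome. Within 500 kb on either side and between the members lie 41 other annotated genes, of which 20 had no count and 11 were tested. None of the 11 passed the edgeR threshold, 2 had an unadjusted p under 0.05, and 1 (Slc2a3, higher) passed with DESeq2 and 0 with limma-voom. Slc2a3, a glucose transporter, had 42.4 and 36.2 CPM with MK-8931, against 25.3 and 21.3 CPM in controls (log2 fold change 0.75, SE 0.17, edgeR adjusted p = 0.105). With each library left out the p ranged over 0.00812 (without control 1) to 0.471 (without MK-8931 1). C3ar1, the receptor for the complement fragment C3a, and Necap1, an adaptor of endocytosis, lie nearest to Clec4a1 among the tested genes. C3ar1 had 752 and 722 CPM with MK-8931, against 656 and 670 CPM in controls (0.15, edgeR adjusted p = 0.744). Necap1 had a log2 fold change of 0.04 (edgeR adjusted p = 0.965). Apobec1, a cytidine deaminase, had 543 and 521 CPM with MK-8931, against 487 and 523 CPM in controls (0.07, edgeR adjusted p = 0.905). Foxj2 (0.16), Gdf3 (−0.33), Mfap5 (0.01) and the pseudogene Gm8430 (−0.20) had edgeR adjusted p-values between 0.686 and 0.999. Gm16556 (1.73, SE 0.98) and Gm8459 (1.29, SE 0.91) stayed under 1 CPM in every library. Dppa3 had 15 and 15 counts with MK-8931, against 0 and 1 in controls (4.61, SE 1.37, edgeR adjusted p = 0.217). In Gm16556, Gm8459, Dppa3, Slc2a3 and C3ar1 both MK-8931 libraries stood above both controls, a pattern seen in 21.2% of all genes tested. The groups of the other tested neighbours overlapped. On the other side, the Vmn2r genes that follow Clec4e, which encode vomeronasal receptors, had no count. Clec4b2, a close relative of Clec4b1 that lies between Clec4a2 and Clec4n and is not a member, had 0 and 4 counts with MK-8931 and none in controls.

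**Figure D2:**
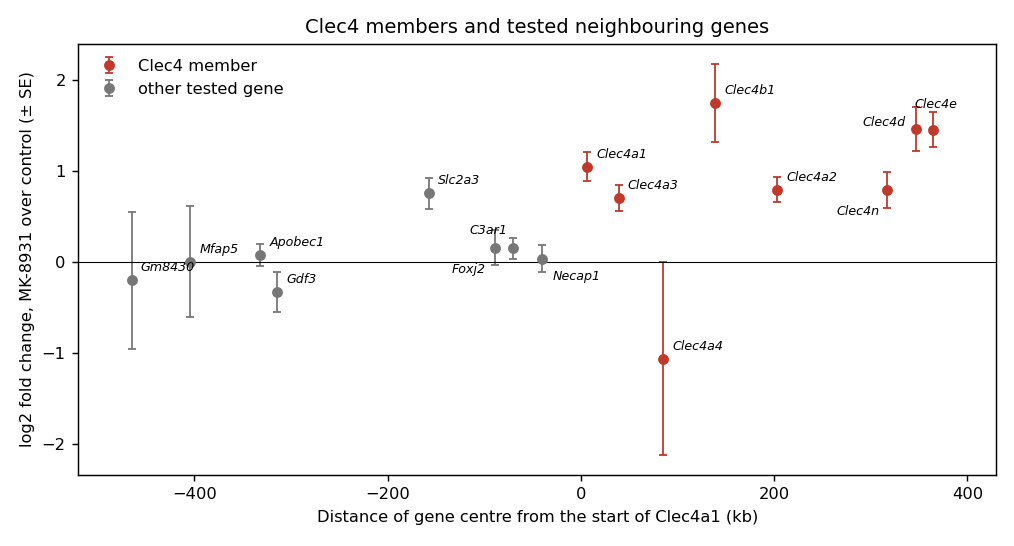
Log2 fold change (MK-8931 over control, ± SE, 4 libraries) against the distance of each gene's centre from the start of Clec4a1 in kb, for the 8 members and for the tested neighbours with a mean of at least 1 CPM. Among the neighbours drawn Slc2a3 stands highest at 0.75, within the range of the members and close to Clec4a3 at 0.71, Clec4n at 0.79 and Clec4a2 at 0.80. The tested neighbours Dppa3 (4.61), Gm16556 (1.73) and Gm8459 (1.29) lie under 1 CPM and are not drawn.

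Genes that act with the receptors were described from lists of the pathway. Of the 15 genes of Dectin-2, Mincle and MCL signalling, all were tested and none passed the edgeR threshold (3 at an unadjusted p under 0.05, 0 with DESeq2 and 0 with limma-voom), with a median log2 fold change of 0.11. Fcer1g, the shared signalling chain, had 452 and 474 CPM with MK-8931, against 450 and 538 CPM in controls (−0.09, SE 0.13, edgeR adjusted p = 0.886). Syk had 458 and 436 CPM with MK-8931, against 409 and 350 CPM in controls (0.24, SE 0.13, edgeR adjusted p = 0.597). Card9 had 94.6 and 102 CPM with MK-8931, against 77.0 and 71.9 CPM in controls (0.40, SE 0.13, edgeR adjusted p = 0.285). Malt1, the protease of the Card9 complex (0.46), and Nfkb1, an NF-kB subunit (0.41), had the smallest p-values of the list (edgeR adjusted p = 0.279 and 0.281). For Nfkb1 the p ranged over 0.0392 (without control 1) to 0.761 with each library left out. Summed CPM of the 4 activating receptors thus stood at 282 and 410 with MK-8931 and 128 and 157 in controls, beside an Fcer1g level whose groups overlapped. Of the 3 phosphatases that ITIMs recruit, none passed (1 at an unadjusted p under 0.05, 0 with DESeq2 and 0 with limma-voom). Ptpn6 had 254 and 306 CPM with MK-8931, against 192 and 212 CPM in controls (0.48, SE 0.14, edgeR adjusted p = 0.204), and Inpp5d had a log2 fold change of −0.06 (edgeR adjusted p = 0.938).

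Some genes that this signalling is known to induce rose. Of 17 listed cytokine, chemokine and enzyme genes, 16 were tested, 6 rose and 0 fell (10 in either direction at an unadjusted p under 0.05, with 1 lower by DESeq2 and 1 by limma-voom), with a median of 0.98 against −0.003 over all genes. Over all genes tested 0.861% were called higher. The list was chosen with earlier results of these data known, so its count and median are a description. The count lower was 2 without control 1, and 1 without control 2 or MK-8931 1. Cxcl3, a chemokine that attracts neutrophils, had 157 and 231 CPM with MK-8931, against 12.7 and 10.99 CPM in controls (4.04, SE 0.22, edgeR adjusted p = 1.41e-04). Il1b, the interleukin-1 beta gene, had 265 and 419 CPM with MK-8931, against 42.8 and 30.0 CPM in controls (3.23, SE 0.25, edgeR adjusted p = 8.4e-04). Ptgs2, the gene of the COX-2 enzyme of prostaglandin synthesis, had 188 and 190 CPM with MK-8931, against 57.0 and 63.8 CPM in controls (1.65, SE 0.13, edgeR adjusted p = 8.4e-04). The other genes that rose, named after their values were seen, were Cxcl2 (1.47), Nos2 (1.91) and Csf3 (4.30), with edgeR adjusted p from 0.00352 to 0.0205. Tnf, also named after its value was seen, was at 80.3 and 54.9 CPM with MK-8931, against 122 and 139 CPM in controls (−0.95, edgeR adjusted p = 0.0605). These genes respond to many other signals, and whether the receptors act on them here was not tested.

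Lectin receptors outside the cluster gave no call. Of 20 listed, 15 were tested and none passed with edgeR (6 at an unadjusted p under 0.05, 1 with DESeq2, 0 with limma-voom), with a median log2 fold change of 0.71. The count was 3 without control 1 and 1 without control 2. Mgl2, a galactose-binding lectin, had 19.9 and 27.1 CPM with MK-8931, against 14.0 and 9.96 CPM in controls (0.97, SE 0.24, edgeR adjusted p = 0.132). With each library left out the p ranged over 0.00219 (without control 1) to 0.582 (without MK-8931 2). Clec2d had 9.70 and 17.6 CPM with MK-8931, against 7.38 and 6.74 CPM in controls (0.95, SE 0.31, edgeR adjusted p = 0.269, and 0.0319 when low counts were not filtered). Without MK-8931 2 its log2 fold change was 0.45. The mannose receptor Mrc1, the beta-glucan receptor Clec7a (Dectin-1) and the inhibitory receptor Clec12a, named after their values were seen, lay between 0.41 and 0.42 (edgeR adjusted p from 0.285 to 0.477), and Clec5a at −0.33 (edgeR adjusted p = 0.523). For Mincle's ligands, none of 3 related genes passed (0 at an unadjusted p under 0.05, 0 with DESeq2 and 0 with limma-voom). Sf3b3, which encodes the nuclear protein that Mincle binds, had a log2 fold change of 0.18 (edgeR adjusted p = 0.749).

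Among the genes of the C/EBP factors and PU.1, Cebpd and Cebpb had the largest log2 fold changes. Of 5 listed factors, all were tested and none passed with edgeR (2 at an unadjusted p under 0.05, 2 with DESeq2, 0 with limma-voom). Cebpd had 36.2 and 44.0 CPM with MK-8931, against 20.2 and 22.6 CPM in controls (0.91, SE 0.17, edgeR adjusted p = 0.0537, DESeq2 adjusted p = 0.00302). With each library left out its edgeR adjusted p ranged over 0.0107 to 0.343, under the threshold without either control and highest without MK-8931 2 (log2 fold change 0.74). Cebpb, the factor known to act on Clec4e, had 358 and 478 CPM with MK-8931, against 262 and 252 CPM in controls (0.70, SE 0.16, edgeR adjusted p = 0.0885, DESeq2 adjusted p = 0.00314). Here the range was 0.00424 to 0.621, again under the threshold without either control and highest without MK-8931 2 (log2 fold change 0.47). Whether either factor acts on a Clec4 member in these cells was not tested. Spi1, the gene of PU.1, and Cebpa, named after their values were seen, had log2 fold changes of 0.20 and −0.27 (edgeR adjusted p = 0.670 and 0.470).

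**Figure D3:**
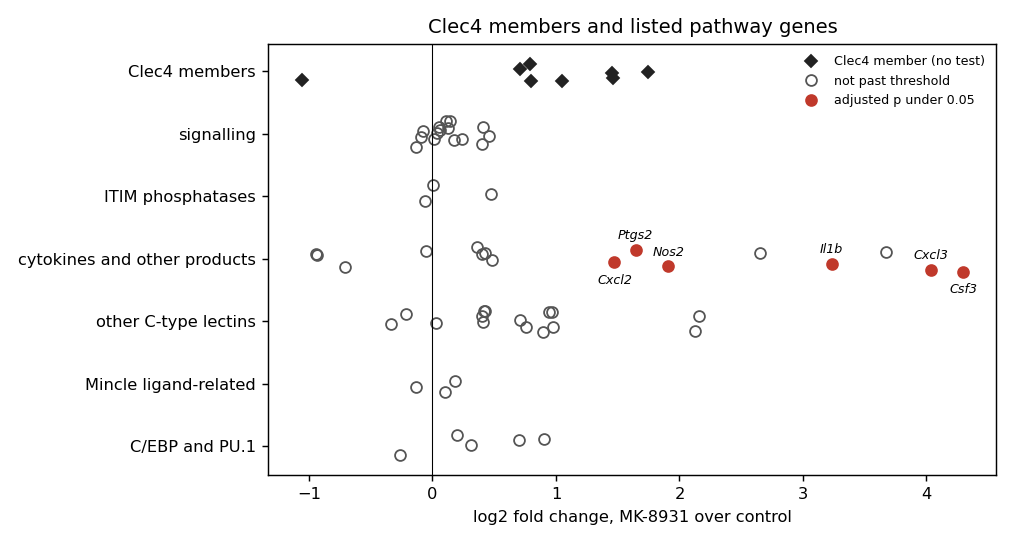
Log2 fold changes (MK-8931 over control) of the 8 Clec4 members and of the tested genes of each pathway list, 1 symbol per gene. Filled circles passed an edgeR adjusted p under 0.05 and all lie in the list of cytokines and other products, and the members, drawn as diamonds, carry no test.

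For each member, the 3 protein-coding genes with the most similar profile over the 4 libraries were taken among those with a mean of at least 5 CPM, by the Euclidean distance between log2 CPM values centred on each gene's own mean. With 4 libraries in 2 groups, many genes lie close to any member. Clec4e lay nearest to Acap1 (distance 0.109), Kcnj2 (0.134) and Cxcl2 (0.142), and Clec4d to Sphk1 (0.170), Dhrs9 (0.257) and Cxcl2 (0.274), so the chemokine gene Cxcl2 stood in both sets. Clec4n lay nearest to the chemokine genes Ccl6 (0.0779) and Ccl9 (0.127) and to Ccdc91. Clec4b1 lay nearest to Tnfsf14 (0.164), Trem1 (0.176), which encodes another activating receptor of myeloid cells, and Arg2. Clec4a2 had Cfp, the properdin gene, at 0.0545, with S100a11 and Ppif, and Clec4a3 had Marcksl1 at 0.0503, with Nod1 and Prdx6. Clec4a1 lay close to Helz2 (0.121) and Ifi209 (0.127). For Clec4a4, which rests on few counts, the nearest gene was Rasd2 at 0.486.

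Summed markers of other myeloid cells that express these receptors were also higher with MK-8931. The labels name a Gr1- gate, which is meant to leave out neutrophils and some monocytes. How far the gate did so was not tested. Of 16 listed neutrophil markers, 11 were tested, 10 were higher and 0 lower by edgeR, and their summed level was 608 and 1010 CPM with MK-8931, against 93.1 and 91.1 CPM in controls. Most of the control sum was Csf3r, with 217 and 292 CPM with MK-8931 and 64.2 and 56.5 CPM in controls. Camp, Elane, Ly6g, Mpo and Ngp had too few counts to be tested, and Elane had no count in any library. S100a8 had 31.2 and 75.4 CPM with MK-8931, against 2.10 and 6.18 CPM in controls. As for Clec4d and Clec4e, the neutrophil sum was higher in MK-8931 2 than in MK-8931 1. Between the controls the neutrophil sum was nearly equal, while control 2 stood at 1.42 times control 1 for Clec4d and 1.03 times for Clec4e. Of the 8 monocyte markers 4 were higher and 0 lower, with sums of 1795 and 1843 CPM with MK-8931 and 1311 and 1227 CPM in controls. Most of each sum was F13a1, which was not among the 4 (log2 fold change 0.30, edgeR adjusted p = 0.397). It had 1399 and 1373 CPM with MK-8931 and 1139 and 1120 CPM in controls. Ccr2, a chemokine receptor of monocytes, had 133 and 145 CPM with MK-8931, against 69.0 and 40.0 CPM in controls (edgeR adjusted p = 0.0359). Of the 8 dendritic cell markers 1 was higher (H2-Ab1) and 0 lower, with sums of 84.1 and 112 CPM with MK-8931 and 46.6 and 33.1 CPM in controls. Most of each sum was H2-Ab1, with 69.0 and 90.7 CPM with MK-8931 and 35.9 and 25.7 CPM in controls. In 6 dendritic markers both MK-8931 libraries stood above both controls, and in 1 (Zbtb46) both stood below. Zbtb46 had 0.667 and 1.03 CPM with MK-8931, against 1.78 and 1.89 CPM in controls. The dendritic count was 2 without control 1, MK-8931 1 or MK-8931 2. The part of these cells in the level of any Clec4 member was not tested.

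Macrophage and microglial markers, taken as sums, were not higher with MK-8931. Of 11 macrophage markers 1 was higher (Itgam, edgeR adjusted p = 0.0485) and 0 lower. They summed to 10594 and 10736 CPM with MK-8931, against 11592 and 14606 CPM in controls. C1qa was the largest part of each sum, with 2173 and 2359 CPM with MK-8931 and 2692 and 4177 CPM in controls. Its log2 fold change was −0.60, beside −0.47 for C1qb and −0.58 for C1qc. Cd68 (−0.09) and Csf1r (−0.04) overlapped between the groups. In 3 macrophage markers both MK-8931 libraries stood above both controls, and in 6 both stood below. No macrophage marker was higher without MK-8931 1 or without MK-8931 2, and 2 were higher and 3 lower without control 1. Of 7 microglial markers 6 were tested and none passed (3 at an unadjusted p under 0.05, with 2 lower by DESeq2 and 0 by limma-voom), with sums of 1867 and 2128 CPM with MK-8931 and 2260 and 2648 CPM in controls. Without control 1, 1 microglial marker was higher and 3 were lower, and without control 2, 1 was lower. None of 6 lymphocyte markers had enough counts to be tested, and their sums stayed between 0.652 and 1.08 CPM. Of 6 markers of glia and vessels, 2 were tested and none passed (1 at an unadjusted p under 0.05, 1 higher by DESeq2 and 0 by limma-voom), and Olig1 and Olig2 had no count. The tested genes were the endothelial Pecam1 (24.1 and 20.6 CPM with MK-8931, 10.8 and 4.65 CPM in controls) and the collagen gene Col1a1, and both passed without control 1.

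**Figure D4:**
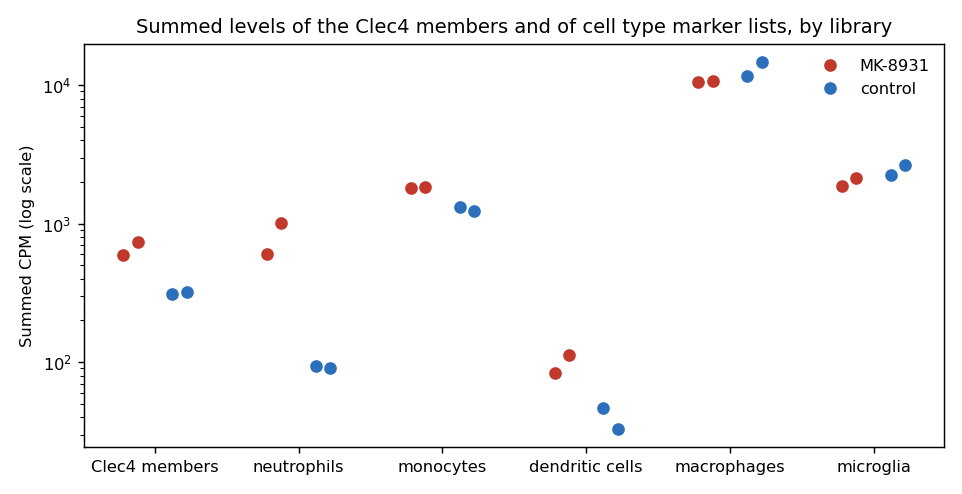
Summed CPM (log axis) of the 8 Clec4 members and of 5 marker lists in each of the 4 libraries, MK-8931 left and control right. The member sums of 591 and 737 CPM with MK-8931 against 312 and 322 CPM in controls stand below the monocyte sums in every library. The neutrophil, monocyte and dendritic sums are also higher with MK-8931, and the macrophage and microglia sums are lower. F13a1 makes up most of each monocyte sum and H2-Ab1 most of each dendritic sum. C1qa is the largest part of each macrophage sum and is lower with MK-8931, while Cd68 and Csf1r overlap between the groups.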

How the data were processed

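Read alignment, gene counting and the use of strand were not given in the sources used here. CASAVA and the build mm9 stand in the submitters' processing notes, yet 98.3% of the 54409 gene identifiers shared with GENCODE M21 have the coordinates of that GRCm38 annotation, all 8 members among them, so coordinates are given as GRCm38. The authors deposited whole-number raw counts for each gene, per the file headers. The FPKM columns are also the authors' own, per the file headers, and equal the count divided by gene length and a constant per library. They give the members' level in each library and the order of levels between genes, and were not tested. Another 4 columns of scaled values per library and 3 columns of the authors' own comparison were not used.

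From the counts, edgeR 4.0.16 (R 4.3.3) gave TMM factors of 0.971 to 1.01. The filter was filterByExpr at its minimum count of 10. The comparison of MK-8931 with control used the two-sided quasi-likelihood test, robust dispersions and Benjamini-Hochberg adjustment over all 13932 genes tested, at a threshold of 0.05. CPM are scaled by TMM, and errors are SD over 2 libraries or the SE of the fitted log2 fold change. The procedure was tested on simulated data first. Libraries of 1 group differed beyond sampling noise (chi-square over its degrees of freedom 17.1 with MK-8931 and 29.7 in controls), so none was taken as a repeat deposit of another. This does not show that they came from separate animals.

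The members and all lists were chosen with earlier results of these data known, so counts and medians of the lists are a description. Members carry no p-value. Other genes named are Fcer1g, Syk and Card9, the 3 genes with the smallest p in each direction among those of a pathway list past the threshold (the 2 with the smallest p where none passed), tested genes within 500 kb of the cluster, and 3 nearest profiles per member. Some genes that this rule takes are left out here. Alternatives were other scalings, no filter on low counts, DESeq2 1.42.0, limma-voom (limma 3.58.1), the replicate number as a block, and leaving out each library.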

Additional observations from a re-analysis of the deposited data

How the results depend on the processing

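In the 10 alternative settings, 7 members kept a positive log2 fold change and Clec4a4 a negative one. With each library left out in turn, log2 fold changes ranged over 0.86 to 1.25 for Clec4a1, 0.69 to 0.87 for Clec4a2, 0.61 to 0.78 for Clec4a3, 1.37 to 2.24 for Clec4b1, 1.09 to 1.73 for Clec4d, 1.12 to 1.70 for Clec4e and 0.57 to 1.04 for Clec4n. For Clec4a4 they ranged over −2.65 to −0.28, the lower end without MK-8931 1, which leaves 2 counts in that group. A fit that leaves 1 library in a group assumes that it varies like the other group.

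The number of genes higher (120) was 366 with no filter on low counts, 266 with DESeq2, 468 with the replicate number as a block and 85 to 520 with a library left out, the most without control 1. The number lower (19) was 176, 96 and 275 in the first 3 of these settings, 30 with limma-voom and 10 to 243 with a library left out. Of the pathway genes, 6 were higher, against 13 with no filter, 10 with DESeq2, 17 with the block and 6 to 13 with a library left out. None was lower, against 1 each with no filter, DESeq2, limma-voom and the block and 0 to 2 with a library left out. Of the chromosome 6 neighbours, 0 were higher, against 1 (Slc2a3) with no filter, DESeq2 and the block and 0 to 1 with a library left out. The titles' numbers are not said to pair the libraries, and with 2 pairs the deviations of same-numbered libraries correlated at r = 0.197 over 13932 genes. With the block the call for Il1b was lost (adjusted p = 0.214) at a log2 fold change of 3.21, against 3.23 without it, and Malt1, Nfkb1, Ptpn6, Card9, Mgl2, Cebpd, Cebpb and Slc2a3 passed. Cebpb and Cebpd also passed with no filter and without either control, but not without either MK-8931 library. The causes were not tested.

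Per kilobase of the transcript with the longest coding sequence, an alternative added after the data were seen, CPM with MK-8931 was 102 for Clec4a2, 63.5 for Clec4n, 60.7 for Clec4e and 6.58 for Clec4b1, and in controls 57.4 for Clec4a2 and 21.8 for Clec4e. By CPM (library size alone) per kilobase of the file's length, Clec4a2 stood at 24.8 in controls, against 25.0 FPKM. With 2 libraries a group and few counts, the difference of Clec4a4 was not detectable at this depth beyond the spread between libraries.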
